A study of Mus musculus with 8 samples.

Results

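The matrix proteases and their inhibitors comprised 42 genes in these data: 18 matrix metalloproteinases (MMPs), 15 ADAMTS proteases, 5 ADAMTS-like genes and 4 tissue inhibitors of metalloproteinases (TIMPs). They were picked out by gene symbol, as Mmp, Timp, Adamts or Adamtsl followed by a number, among the probe sets with 1 gene symbol. This group was chosen with earlier results of these data known. The array held 78 such probe sets, out of 18193 genes named in all, and each gene was described on its brightest probe set, the one with the highest mean over all 8 arrays. RefSeq lists 9 further genes of these families, which are not analysed here.

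The study measured RNA of the atrioventricular canal of the mouse heart, the segment in which the endocardial cushions form the valves. The 4 control pools were Gata4flox/flox, with loxP-flanked alleles of the zinc finger transcription factor Gata4. The 4 mutant pools (Gata4T2del) carried floxed Gata4 and in addition T2Cre, a Cre recombinase driven by the promoter of Tie2, which is active in endothelial cells and so also marks the cushion mesenchyme descended from them. All mice shared a mixed C57BL6/129 background, and each pool combined 10 microdissected canals. Myocardium and epicardium of the canal were not targeted, no Cre is named for the controls, and the sources used here do not give embryo age. The comparison asks which transcripts differ in the canal when endothelial cells and their descendants lack Gata4.

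MMPs are zinc-dependent enzymes, mostly secreted as inactive precursors, that cut collagens, gelatins, laminins and other matrix proteins. ADAMTS enzymes add thrombospondin repeats to a related catalytic domain, and several of them cleave versican, the large hyaluronan-binding proteoglycan that fills the cardiac jelly and the cushions. TIMPs bind the active site of these enzymes and block it, while ADAMTS-like proteins have the repeats without the protease and sit on fibrillin microfibrils. In the heart, turnover of versican and collagen accompanies the remodelling of swollen cushions into thin leaflets.

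Array quality differed within the control group. The 27 bacterial control probe sets for which no RNA is normally added read 158 and 135 at the median on controls 2 and 3, and between 4.0 and 39.3 on the other 6 arrays. A gene was called above background on an array where its signal exceeded the 90th percentile of those probe sets, which was 316 and 270 on controls 2 and 3 and 21.4 to 97.5 elsewhere. Such a call was therefore harder to reach on controls 2 and 3, where 17 and 19 of the 42 genes passed it, against 21 to 30 on the other arrays. On its brighter probe set, Gata4 itself lay between 11.07 and 11.42 on a log2 scale in the controls and between 10.93 and 11.28 in the mutants. The log2 change there was -0.15 (SE 0.11, limma adjusted p = 0.585). Its other probe set, above background on 2 control and 4 mutant arrays, had a change of 0.98 (SE 0.45, limma adjusted p = 0.388). Untargeted muscle also expresses the gene, so these values do not check the deletion. All 7 markers of cushion mesenchyme and all 8 of cardiomyocytes were above background on all 8 arrays, as were 6 of 8 of endothelium. None of the 5 neutrophil and mast cell markers, 7 macrophage and blood markers or 5 foregut and liver markers was above background on all 8. On all 4 mutant arrays 1, 3 and 1 of them were, and on all 4 control arrays 0. The macrophage and blood markers Csf1r and Laptm5 were above background on 0 and 1 control arrays and on 4 mutant arrays each. Of the tested markers in these lists, 1 of 2, 1 of 3 and 0 of 3 had positive changes. Of the tested markers, 5 of 7 of cushion mesenchyme had negative changes in the mutants, with a median of -0.65, and their summed signal was 13803 to 15714 in controls and 8016 to 12091 in mutants. All 7 of epicardium had positive changes, with a median of 0.56 and sums of 5407 to 6179 and of 6769 to 10655. Of the 8 cardiomyocyte markers, 7 had positive changes (median 0.12), with sums of 71428 to 86009 in controls and 87612 to 100199 in mutants. All 4 tested erythroid markers had negative changes (median -0.43), with sums of 20723 to 30060 and of 23851 to 30128. Of the 8 endothelial markers, 6 had positive changes (median 0.31), yet their summed signal was 9607 to 11382 in controls and 9364 to 9896 in mutants. Among these 8 only Tek passed, as lower (-0.72, SE 0.07, limma adjusted p = 0.000172). The part of these markers in the values below was not tested. In pooled tissue, fewer cells of a type and less RNA per cell cannot be told apart.

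Of the 42 genes, 8 (19.0%) were above background on all 8 arrays, against 42.6% of all 18193 named genes. These 8 were Adamts1, Adamts3, Adamts9, Adamts15, Mmp2, Mmp14, Timp2 and Timp3. They include enzymes that cleave versican, an enzyme that trims procollagen, the gelatinase Mmp2 with its membrane activator Mmp14, and 2 inhibitors, and no ADAMTS-like gene, collagenase or stromelysin. On the mutant arrays, where background was lower, 19 genes (45.2%) were above it on all 4, against 57.9% of all 18193 named genes. Among the 42, only Mmp1b and Mmp12 were above background on no array, beside 1540 of all 18193 named genes. Signals of different probe sets do not rank transcripts by amount, so no order of level among genes was drawn.

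**Figure D1:**
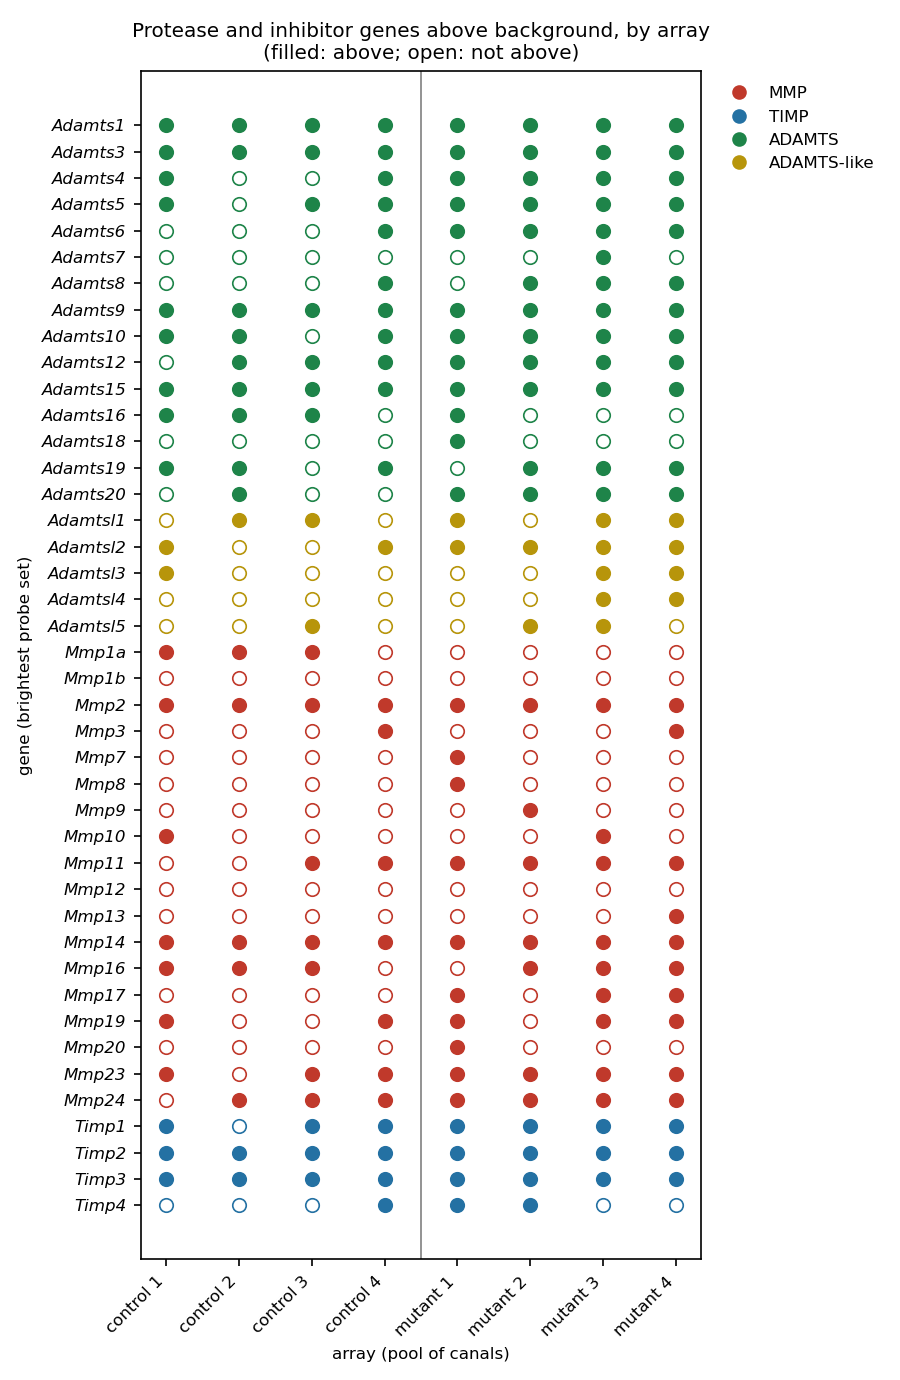
Each row is 1 of the 42 genes on its brightest probe set and each column is 1 array, with a filled circle where the deposited signal exceeded the 90th percentile of that array's 27 background probe sets and an open circle where it did not. Mmp2, Mmp14, Timp2, Timp3, Adamts1, Adamts3, Adamts9 and Adamts15 are filled across all 8 arrays, whereas most MMP rows are largely open.

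The MMPs near background lay mostly in 1 place in the genome. Of the 18 genes, 9 form a cluster on chromosome 9 in the mouse reference (Mmp13, Mmp12, Mmp1b, Mmp3, Mmp1a, Mmp10, Mmp8, Mmp20 and Mmp7), and they include the interstitial collagenases, the stromelysins Mmp3 and Mmp10, the macrophage elastase Mmp12, the enamel protease Mmp20 and matrilysin, Mmp7. None of these 9 was above background on more than 1 mutant array, and all 9 were removed by the filter on low values. Of the 9 MMPs elsewhere in the genome, 7 were tested and 5 were above background on all 4 mutant arrays. Textbook accounts place an AP-1 element, the site bound by Fos and Jun proteins, in the proximal promoter of many genes of this cluster. The letters TGACTCA, or TGAGTCA on the other strand, were present within 250 bases upstream of the RefSeq start in 7 of the 9 genes and in 7 of their 11 listed promoters (63.6%), against 4.46% of all 32851 promoters. The last 120 bases before the start are shown for these 7 genes because they were near background together and share this feature. They are from RefSeq, build GRCm38.p6, written 5′ to 3′ on the strand of the gene. Capitals mark the AP-1 letters and, in Mmp12 and Mmp13, a GATA match as well (AGATAG in Mmp12 or CTATCA in Mmp13, the other strand of TGATAG). In Mmp12 the AP-1 and GATA letters overlap by 1 base.
Mmp13, chr9:7272394-7272513, plus strand: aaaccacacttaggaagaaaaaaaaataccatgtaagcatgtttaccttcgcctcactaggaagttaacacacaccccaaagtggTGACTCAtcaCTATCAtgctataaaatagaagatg
Mmp12, chr9:7347254-7347373, plus strand: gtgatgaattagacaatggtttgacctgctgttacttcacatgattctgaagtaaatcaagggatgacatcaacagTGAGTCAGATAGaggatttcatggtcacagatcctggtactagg
Mmp1b, chr9:7388027-7388146, minus strand: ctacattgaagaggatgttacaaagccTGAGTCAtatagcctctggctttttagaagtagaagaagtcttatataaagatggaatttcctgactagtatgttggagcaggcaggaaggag
Mmp3, chr9:7445702-7445821, plus strand: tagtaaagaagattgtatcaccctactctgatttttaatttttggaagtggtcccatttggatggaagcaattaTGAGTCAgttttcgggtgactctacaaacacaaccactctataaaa
Mmp1a, chr9:7464021-7464140, plus strand: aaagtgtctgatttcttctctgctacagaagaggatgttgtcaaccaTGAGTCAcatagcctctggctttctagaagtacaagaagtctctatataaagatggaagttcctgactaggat
Mmp10, chr9:7502222-7502341, plus strand: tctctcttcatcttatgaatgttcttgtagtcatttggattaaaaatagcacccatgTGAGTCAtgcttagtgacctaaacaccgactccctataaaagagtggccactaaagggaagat
Mmp7, chr9:7691970-7692089, plus strand: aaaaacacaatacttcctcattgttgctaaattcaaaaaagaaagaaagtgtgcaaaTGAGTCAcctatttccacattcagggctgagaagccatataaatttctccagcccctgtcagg

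The AP-1 letters began 73 bases upstream of the start in Mmp1a, 93 in Mmp1b, 46 in Mmp3, 63 in Mmp7 and Mmp10, 44 in Mmp12 and 35 in Mmp13, at 1 of 2 listed starts in Mmp7 and Mmp12. No AP-1 letters were found in the windows of the other members with a listed promoter. The GATA letters AGATAA or TGATAA or AGATAG or TGATAG, on either strand, stood in the 250 upstream bases of 5 of the 27 members with a listed promoter, namely Adamts20, Mmp7, Mmp12, Mmp13 and Mmp24. That is 5 of 30 promoters (16.7%), against 26.5% of all promoters. A match in these letters is not a shown binding site, and their absence says nothing about sites outside this window.

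Mmp1a, a collagenase gene, was the member of this cluster above background on the most arrays, 3. Its deposited signals were 127, 357, 324 and 28.5 on controls 1 to 4 and 18.9, 20.8, 11.9 and 3.26 on mutants 1 to 4. Controls 1, 2 and 3 were above background and no mutant array was, and the groups did not overlap on the normalized scale either. With the mutants set at the lowest level that counts as above background, the control mean was 1.77-fold higher. The measured log2 means were 7.05 ± 0.80 and 5.28 ± 0.31 (SD, n = 4 each). That control mean includes control 4 at a value below background (28.5 against a limit of 51.1), so 1.77-fold is not a strict lower bound. The 2 highest control signals were on controls 2 and 3, the arrays with the highest background. On controls 1 and 4 alone, of which control 4 was below background, the value was 1.21-fold. Among all 18193 named genes, 3.36% lay wholly lower and 3.95% wholly higher in the mutants. The gene was too dim for the filter, and in the fit without that filter its limma adjusted p was 0.195.

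The mutant and control pools were compared with limma on quantile-normalized log2(signal + 16) over 27022 probe sets, so a change understates the fold change of dim genes. Of the 42 genes, 24 passed the filter on low values and were tested, and 0 were higher and 0 lower at a Benjamini-Hochberg adjusted p under 0.05. Over all 12069 genes tested on their brightest probe set, 0.0663% were called, 0.0414% higher and 0.0249% lower, and over all probe sets 0.0259% were higher and 0.0185% lower. The smallest adjusted p among the members was 0.331. At an unadjusted p under 0.05, 3 of the 24 were higher (12.5%, Adamts4, Adamts9 and Mmp24) and 2 lower (8.33%, Adamts16 and Adamts19), against 7.31% and 5.61% of all genes. Changes were positive for 14 and negative for 10, with a median of 0.08, beside 53.2% positive, 46.8% negative and a median of 0.02 over all genes. The size of a change is given below only for probe sets above background on at least 2 arrays of each group, which held for 21 of the 24.

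**Figure D2:**
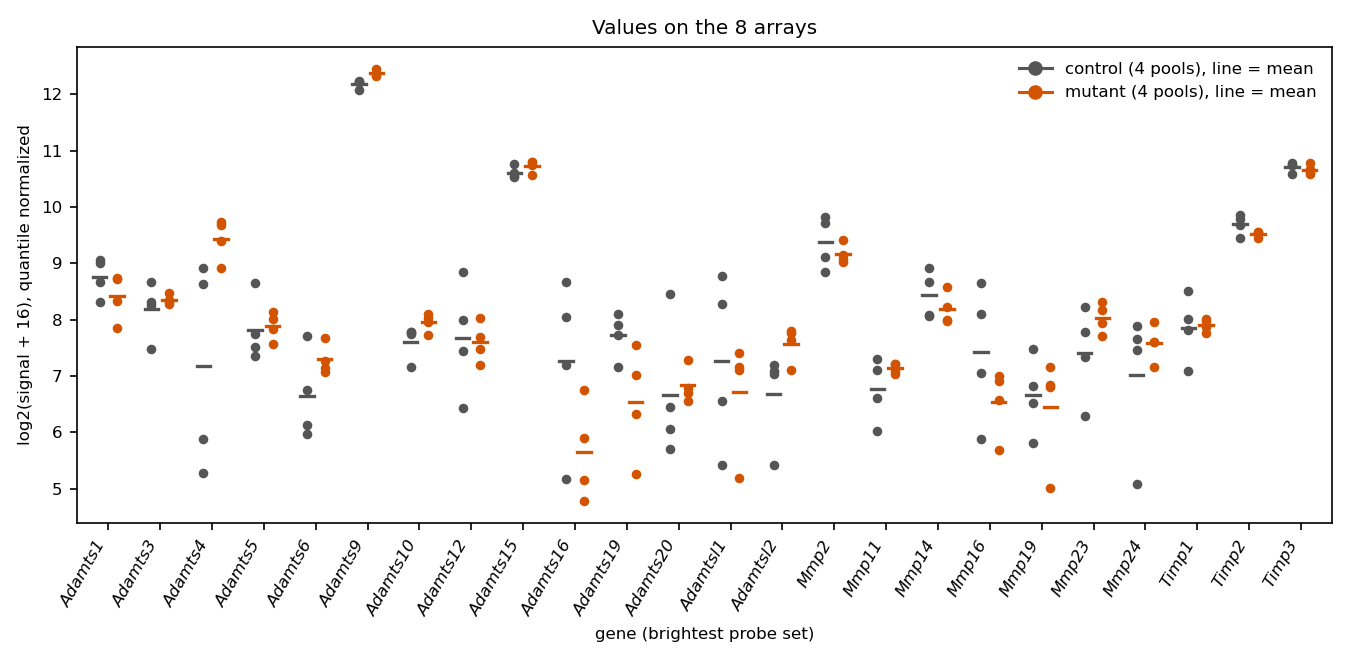
The vertical axis gives quantile-normalized log2(signal + 16) of the 24 tested genes, with 1 point for each array, grey for the 4 controls and orange for the 4 mutants, and a line at each group's mean. The groups are apart only for Adamts9, from 12.07 to 12.23 in controls and from 12.32 to 12.45 in mutants, and Adamts4 has 2 low control points.

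Adamts9, a secreted protease that cleaves versican and is required for normal cardiac valves in mice, was the only tested member whose groups did not overlap. Its log2 values were 12.21, 12.23, 12.07 and 12.21 in controls 1 to 4 and 12.35, 12.45, 12.32 and 12.37 in mutants 1 to 4. Every mutant pool lay above every control pool, by a small margin. The means were 12.18 ± 0.08 and 12.37 ± 0.06 (SD, n = 4 each), and the log2 change was 0.16 (SE 0.07, adjusted p = 0.341), or 1.12-fold. Such separation upward was seen for 4.97% of all tested genes, and 1 of 24 members is 4.17%. Separation downward was seen for 3.19% of all tested genes and for 0 members. The change was 0.16 without controls 2 and 3 as well. The other 2 Adamts9 probe sets had changes of -0.09 (SE 0.21) and 0.38 (SE 0.43), with overlapping groups, so the direction was not shared by all of them.

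Adamts4, an aggrecanase that also cuts versican, had the largest positive change among the brightest probe sets. Its brighter probe set read 8.92, 5.88, 5.27 and 8.63 in controls 1 to 4 and 9.40, 8.92, 9.72 and 9.68 in mutants 1 to 4. Controls 2 and 3 stood far below the other controls, and they were the arrays on which the signal did not exceed background. The log2 change was 1.49 (SE 0.54, adjusted p = 0.331), or 2.80-fold. Without controls 2 and 3 it was 0.73 (SE 0.25, adjusted p = 0.572). It became significant without control 1 (3.44, adjusted p = 0.0143) and without control 4 (3.11, adjusted p = 0.0175), in fits where controls 2 and 3 were 2 of the 3 controls and 5.34% and 4.64% of all genes were called higher. The second Adamts4 probe set read 6.09, 6.74, 4.88 and 7.59 in the controls and 8.30, 7.66, 8.03 and 8.23 in the mutants. There the groups did not overlap (unadjusted p = 0.000883, adjusted p = 0.195), and only control 4 was above background among the controls.

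None of the other enzymes that cleave versican and related proteoglycans passed the test. Adamts15 had log2 means of 10.61 ± 0.11 and 10.72 ± 0.11 (SD, n = 4 each) in controls and mutants, with a change of 0.11 (SE 0.11, adjusted p = 0.695). Adamts1, whose product also has antiangiogenic activity, ranged from 8.32 to 9.06 in controls and from 7.85 to 8.74 in mutants (change -0.09, SE 0.25, adjusted p = 0.912). Adamts5 had a change of 0.05 (SE 0.30, adjusted p = 0.963) on its brightest probe set and -0.49 (SE 0.35) on the next. Adamts20, which acts in melanoblast survival and palate closure in mice, was above background on 4 mutant arrays and on control 2, with log2 values from 5.70 to 8.46 in controls and from 6.56 to 7.29 in mutants. Adamts8 was above background on 1 control and 3 mutant arrays and was not tested. Of the 7 genes in this class, 6 were tested, 5 with positive and 1 with negative changes.

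Among the remaining ADAMTS genes, Adamts19 had the largest negative change of a brightest probe set for which a size is given. This protease, mutated in human valve disease, read 7.90, 8.09, 7.16 and 7.73 in controls 1 to 4 and 5.26, 7.02, 7.55 and 6.33 in mutants 1 to 4. Mutant 3 lay inside the control range, and the other 3 mutants lay below it. The change was -1.10 (SE 0.50, adjusted p = 0.387), with 3 control and 3 mutant arrays above background, and -1.36 without controls 2 and 3. Adamts16 was above background on 3 control arrays and 1 mutant array, with values of 7.19, 8.67, 8.04 and 5.18 in controls and of 6.76, 5.90, 5.15 and 4.77 in mutants. Its adjusted p was 0.370, and it passed without control 4 (adjusted p = 0.0356), a fit that called 1.37% of all genes lower. That fit kept controls 2 and 3, which held the highest Adamts16 values (8.67 and 8.04). Control 4, at 5.18, lay within the mutant range. The procollagen amino-propeptidase Adamts3 was above background on all 8 arrays (change 0.04, SE 0.24), and the fibrillin-associated Adamts10 on 3 controls and 4 mutants (change 0.22, SE 0.26). Adamts12 had a change of 0.43 (SE 0.37) in the weighted fit although its unweighted means were 7.68 in controls and 7.60 in mutants, and the change was -0.08 without array weights. Adamts6 was above background on control 4 and on all 4 mutants, with values from 5.97 to 7.71 in controls and from 7.08 to 7.67 in mutants (adjusted p = 0.484). Adamts7 and Adamts18 were each above background on 1 array.

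**Figure D3:**
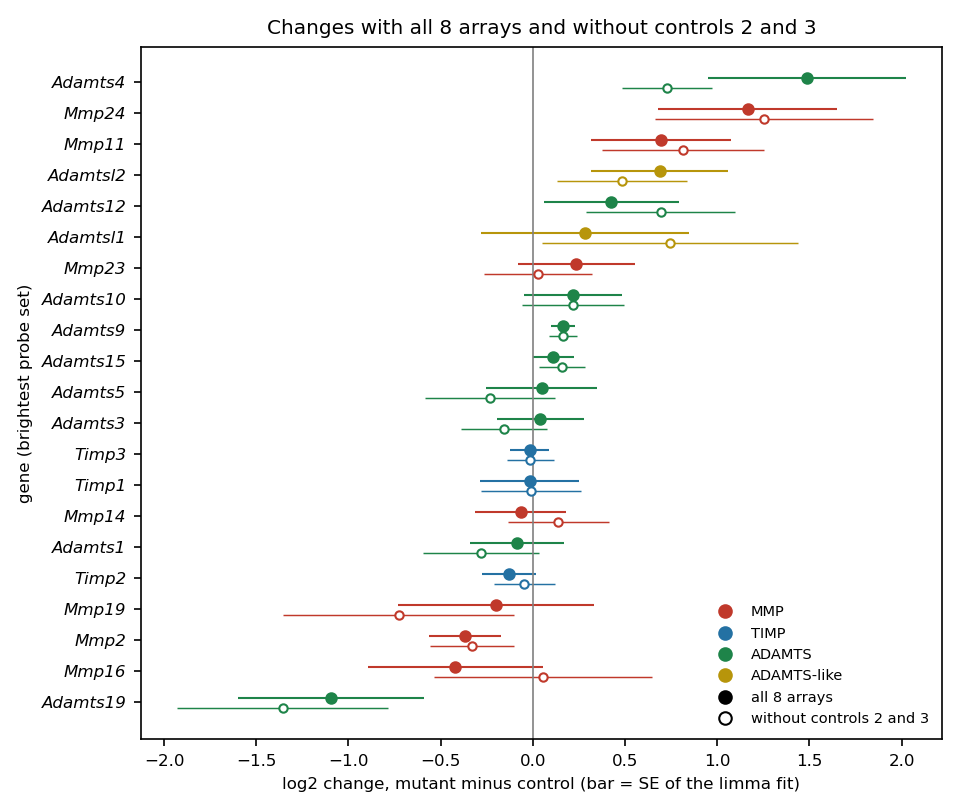
Points give the log2 change, mutant minus control, of the 21 genes above background on at least 2 arrays of each group, with bars for the SE of the limma fit, filled for all 8 arrays and open without controls 2 and 3. The changes run from -1.10 for Adamts19 to 1.49 for Adamts4 with all arrays, and none passes the threshold. Between the fits 4 of the 21 change sign, namely Adamts3, Adamts5, Mmp14 and Mmp16.

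Mmp2, the gelatinase that degrades denatured and type IV collagen, was lower on average in the mutants on both probe sets without passing the threshold. The brighter one read 9.82, 8.84, 9.71 and 9.11 in controls 1 to 4 and 9.08, 9.41, 9.14 and 9.01 in mutants 1 to 4. Controls 1 and 3 were above every mutant and control 2 below every mutant, so the groups overlapped. Its change was -0.37 (SE 0.20, adjusted p = 0.442), and that of the other probe set was -0.52 (SE 0.24, adjusted p = 0.388). Without controls 2 and 3 the brighter one had a change of -0.33. Mmp14, the membrane protease that activates the Mmp2 precursor on the cell surface, had means of 8.43 ± 0.43 and 8.19 ± 0.28 (SD, n = 4 each), with a change of -0.07 (SE 0.25, adjusted p = 0.932). The other gelatinase, Mmp9, was above background on mutant 2 alone and was not tested.

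Mmp24, a membrane-type protease known from neurons, read 5.09, 7.88, 7.46 and 7.65 in controls 1 to 4 and 7.96, 7.15, 7.59 and 7.60 in mutants 1 to 4. The mutants overlapped with controls 2, 3 and 4, and control 1 alone stood low. The change of 1.17 (SE 0.49, adjusted p = 0.355) became -0.02 without control 1. Mmp11, a stromelysin of tissue remodelling, was even among the mutants, at 7.04 to 7.21, and ranged from 6.03 to 7.30 in controls (change 0.69, SE 0.38, adjusted p = 0.455). Of the remaining membrane-type genes, Mmp16 had a change of -0.42 (SE 0.48) and Mmp17 was above background on 3 mutant arrays and no control array. Mmp19 and Mmp23 had changes of -0.20 (SE 0.53) and 0.24 (SE 0.32). None of these passed.

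None of the 3 tested inhibitors passed the test. Timp3, which stays bound to the matrix and also inhibits ADAMTS enzymes, read 10.75, 10.78, 10.75 and 10.59 in controls 1 to 4 and 10.61, 10.58, 10.77 and 10.67 in mutants 1 to 4. Its change was -0.02 (SE 0.11, adjusted p = 0.964), and its 3 other tested probe sets had changes of -0.17, 0.07 and -0.45. Timp2, which takes part with Mmp14 in activating Mmp2, had means of 9.70 ± 0.18 and 9.52 ± 0.05 (SD, n = 4 each), a change of -0.13 (SE 0.14, adjusted p = 0.734). Timp1 had a change of -0.02 (SE 0.27, adjusted p = 0.986) and was above background on 3 control arrays and all mutant arrays. Timp4, known from the adult heart, was above background on control 4 and on mutants 1 and 2 and was not tested. In the reference, Timp1, Timp3 and Timp4 lie within or overlap the synapsin genes Syn1, Syn3 and Syn2.

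Timp2 had the most probe sets of any member, 6, of which 5 were tested, and their values did not run together. The dimmest tested one read 7.35, 8.59, 8.79 and 6.30 in controls and 7.04, 5.83, 5.43 and 6.51 in mutants (change -1.23, SE 0.51, adjusted p = 0.355), with its highest values on controls 2 and 3. Another read 8.72, 5.97, 5.45 and 8.03 in controls and 7.74 to 8.24 in mutants, with its lowest values on those same 2 arrays (change 0.30, SE 0.45). Over the group, 8 genes had at least 2 probe sets with a size to report. All of these probe sets of Mmp2 and Mmp16 were negative with all 8 arrays, and those of the other 6 genes had both signs. Without controls 2 and 3, the brightest Mmp16 probe set had a change of 0.055 (SE 0.59).

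**Figure D4:**
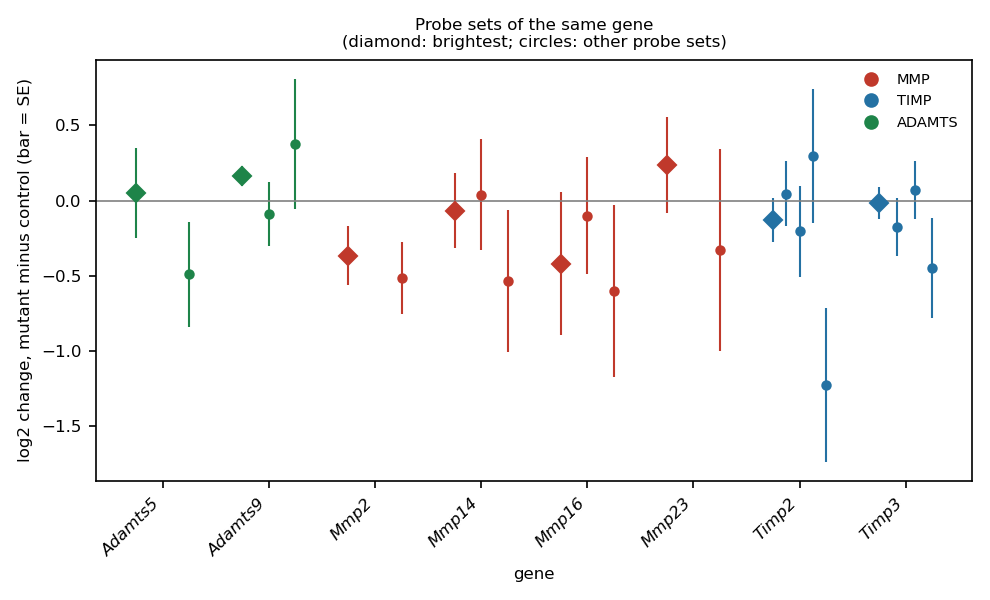
The log2 change, mutant minus control, is shown with its SE for each reported probe set of the 8 genes with at least 2, as a diamond for the brightest and circles for the others. Only Mmp2 and Mmp16 have all their probe sets on 1 side of 0, and those of Timp2 run from -1.23 to 0.30.

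The ADAMTS-like genes were dim. Adamtsl2, a fibrillin-associated protein that modulates TGF-beta availability, read 7.19, 5.42, 7.04 and 7.09 in controls 1 to 4 and 7.79, 7.10, 7.64 and 7.77 in mutants 1 to 4. Mutants 1, 3 and 4 were above all controls, mutant 2 was within the control range, and control 2 stood far below the rest. The change was 0.69 (SE 0.37, adjusted p = 0.446) and 0.48 without controls 2 and 3. Adamtsl1 had a change of 0.28 (SE 0.56). Adamtsl3, Adamtsl4 and Adamtsl5 were above background on 2 or 3 arrays each and were not tested.

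Some of the directions given here depended on the scaling. With each array centred on its median instead of quantile normalized, all tested probe sets had a median of 1.13 for the mutants over the controls, and 12 of 23 tested members were called higher and 2 lower, beside 71.8% and 6.23% of all genes. Relative to that median, 7 of the 23 were positive, against 58.2% of all genes. Adamts4 (2.98), Adamts9 (0.81), Adamts15 (0.47) and Timp3 (0.39) lay above it, Mmp2 (-0.25) and Adamts1 (-0.37) below it, and Timp3, Mmp11, Mmp24, Adamts3, Adamts5, Adamts10, Adamts12, Adamts20 and Adamtsl1 had the opposite sign to that in the quantile-normalized fit.

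The partners of these enzymes were read from lists of the pathway. Of 26 tested substrates and matrix partners, 0 passed the threshold, with 11 positive changes and a median of -0.12. At an unadjusted limma p under 0.05, 5 of the 26 were higher and 7 lower. Both shares were larger than those of all tested genes, 7.31% and 5.61%, in a list chosen with earlier results of these data known. The smallest p values there belonged to the hyaluronan receptor Cd44 (0.36, SE 0.07, adjusted p = 0.0654), tenascin Tnc (-0.83, SE 0.19, adjusted p = 0.154) and fibronectin Fn1 (-0.35, SE 0.09, adjusted p = 0.195). Versican, Vcan, the main cushion substrate of the ADAMTS enzymes, had means of 13.61 ± 0.02 and 13.49 ± 0.07 (SD, n = 4 each). Its change was -0.13 (SE 0.05, adjusted p = 0.351), and its groups did not overlap. Such separation was seen downward for 4 and upward for 5 of the 26 genes, against 3.19% and 4.97% of all tested genes.

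Of 13 tested activators and membrane regulators, 0 passed, with a median of -0.08. The proprotein convertases Pcsk5 (0.48, SE 0.16) and Furin (-0.14, SE 0.07), which activate MMP and ADAMTS precursors, had changes of opposite sign, with adjusted p of 0.275 and 0.395. The testican Spock1 (-1.40, SE 0.54) and caveolin Cav1 (0.33, SE 0.14) had smaller p than Furin in this list, and Pcsk5 had the smallest. The membrane-anchored MMP inhibitor Reck (-0.02, SE 0.19) and the MMP inducer Bsg (0.04, SE 0.11) had changes near 0. Of 16 other matrix and shedding proteases, 0 passed (median 0.01), and Adam19 (-0.32, SE 0.13, adjusted p = 0.338), a metalloprotease required for heart development in mice, had the smallest p, followed by the lysosomal Ctsd (0.27, SE 0.14) and the peptidase Dpp4 (0.41, SE 0.22). Of 10 serpins and cathepsin inhibitors, 8 had positive changes and 0 passed (median 0.19), with Cst3 (0.15, SE 0.06), Serpinf1 (0.39, SE 0.15) and the collagen chaperone Serpinh1 (-0.13, SE 0.07) at the smallest p.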

How the data were processed

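Expression was measured on 8 Affymetrix mouse arrays, 4 control and 4 mutant, and each is 1 pool of canals, so p-values measure the spread between pools. The submitters' processing notes name MAS5, and the deposited table holds its intensities on a linear scale; its version, background step and detection calls are not given in the sources used here. The design text says that 2 noisy controls were excluded without saying which, and all 4 in the table were kept. The number of arrays limits the precision.

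From these, log2(signal + 16) was quantile normalized, and 27022 of 45101 probe sets remained after removal of array controls and of the dimmest 40% by mean. Groups were compared in limma 3.58.1 (R 4.3.3) with array weights and with eBayes trend and robust set, two-sided, with Benjamini-Hochberg adjustment over all 27022 probe sets. Means and SDs are unweighted, whereas log2 changes are weighted. Exceptions are the fit without array weights and, unless weights are named, the fit without controls 2 and 3. The array weights were 1.36, 0.30, 0.35 and 0.87 for controls 1 to 4. They were 1.29, 0.89, 2.80 and 2.50 for mutants 1 to 4, so the arrays did not count evenly. Gene names came from the platform annotation (34945 probe sets with 1 symbol, 932 with several), and all 42 members matched RefSeq by Entrez ID.

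Genes named with values were a fixed set of 12, the 12 members with the smallest p, the 6 brightest, those without overlap and those whose probe sets disagreed; the other members are given by ranges, counts or changes only. The members and lists were chosen with earlier results of these data known. Alternatives were 2 other pseudocounts, 2 scalings, 2 filters, no weights, plain eBayes, arrays left out, a replicate block, the mean of a gene's probe sets and 2 background limits. Same-numbered control and mutant arrays did not deviate together (correlations -0.11, 0.0058, -0.13 and 0.17), so they were not treated as pairs.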

Additional observations from a re-analysis of the deposited data

Results flagged for a closer look

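In 5 of 32 groups of 4 arrays, 1 array stood apart from the other 3 by Dixon's test at the 95% level, which chance alone gives for about 1 in 20 groups. Control 3 read 12.07 for Adamts9, below 12.21 to 12.23 on the other controls. Control 2 read 5.42 for Adamtsl2, below 7.04 to 7.19. Control 1 read 5.09 for Mmp24, below 7.46 to 7.88. Mutant 4 read 9.45 for Timp2, below 9.54 to 9.56, and control 4 read 10.59 for Timp3, below 10.75 to 10.78.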

How the results depend on the processing

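No protease or inhibitor gene was called under any other setting than median-centred arrays (12 higher, 2 lower) and the fits without control 1 or control 4, and one array left out at a time gave 0 to 1 called higher and 0 to 1 called lower. Over all probe sets, 7 were higher and 5 lower. These counts were 22 and 12 with a pseudocount of 64, 41 and 22 on the authors' scaling, 17322 and 1832 with median-centred arrays, 14 and 12 without a filter, and 0 and 0 with plain eBayes, where 3022 had an unadjusted p under 0.05. They were 1 and 1 without controls 2 and 3, also with array weights kept, a setting chosen after seeing the data. Without array weights 10 were lower. One array left out at a time gave 3 to 1417 higher and 2 to 371 lower, the highest without control 1 (1417 and 263) and without control 4 (1291 and 371), then 89 and 20 without control 3, 15 and 39 without mutant 3, 3 and 2 without mutant 1, and 8 lower without mutant 2. With the replicate number as a block, although the numbers pair no samples, 26 were higher and 34 lower, and no member was called. Members with positive changes numbered 14 of 24, and 11 to 16 with 1 array left out. They were 9 of 23 on the authors' scaling and 7 of 23 relative to the median with median-centred arrays. With the 60% lowest left out they were 7 of 14. Over all genes 53.2% were positive in the main fit, and 45.4%, 58.2% and 53.9% in those settings, in that order. Genes above background on 0 arrays were 2, against 1 at the 75th percentile and 13 at the highest background probe set.

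Of 16 genes followed through the settings, 9 turned sign in at least 1, among them Mmp24, Mmp11 and Adamts12, whose reported changes were 1.17, 0.69 and 0.43, and the cause was not tested. Relative to the median with median-centred arrays, values were -1.12 for Adamts12, -0.51 for Adamts5, -1.004 for Mmp11, -0.70 for Mmp24 and 0.39 for Timp3. On the authors' scaling, where no median was subtracted, changes were -0.32 for Adamts5, -0.15 for Mmp23 and 0.039 for Timp3. All tested probe sets had a median change of -0.0996 there. Adamts5 also gave -0.013 with the 60% lowest left out, -0.23 and, with weights, -0.19 without controls 2 and 3, -0.16 with the replicate block and -0.22 as the mean of its probe sets, where Mmp23 gave -0.059. Mmp14 gave 0.14 and, with weights, 0.10 without controls 2 and 3, and 0.0059 with the replicate block. Without array weights Adamts12 was -0.084 and Timp1 0.049. Timp1 was 0.0023 without a filter, and Timp3 0.020 without controls 2 and 3 with weights. With 1 array left out, changes ran from -0.30 to 0.048 for Adamts1, -0.55 to 0.81 for Adamts12, -0.082 to 0.35 for Adamts5, -0.46 to 0.048 for Mmp14, -0.024 to 1.81 for Mmp24, -0.10 to 0.046 for Timp1 and -0.073 to 0.0015 for Timp3.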
